A study of Mus musculus with 20 samples.

Results

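Acat1, Bdh1, Slc16a1 and Fgf21 were followed in whole livers of wild-type (WT) and *Crem* knock-out (KO) mice as a set of 4 genes for the making, export and hormonal control of ketone bodies. The members were chosen by gene symbol, as each probe set (the probes on the array that report 1 transcript) annotated with exactly 1 of these names, which gave 1 probe set a gene and 4 genes of the 19661 measured on the array. Total RNA of 20 livers was hybridized to 20 arrays, with 5 mice in each of 4 groups, WT and KO at 0 h, when the light came on, and WT and KO at 12 h, when it went off. The mice had reached an age of 8 weeks and were of mixed background, labelled 129Pas x C57Bl/J. They were untreated, had 12 h of light a day and could eat at any time, so that no group was fasted by the protocol. The KO mice were Crem-/- and lacked the cAMP-responsive factor CREM in all cells of the body, not in hepatocytes alone. Labels gave 5 batches, of which batches 1 to 4 held the 0 h livers of both genotypes and batch 5 held all 12 h livers, and what a batch stands for was not stated. A comparison of genotypes within a batch was thus possible, but a difference between the times cannot be told apart from one between batches.

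In the fed-to-fasted switch the liver turns fatty acids into ketone bodies that other organs burn. Inside mitochondria, thiolase (*Acat1*) joins acetyl-CoA units to acetoacetyl-CoA, further enzymes make acetoacetate from it, and *Bdh1* reduces acetoacetate to beta-hydroxybutyrate, which leaves the cell with protons through monocarboxylate transporters such as the one encoded by *Slc16a1* (MCT1). FGF21 is a hormone secreted by the liver in fasting and in amino acid or mitochondrial stress. Its gene is a target of PPAR alpha and ATF4, and it acts on cells that carry FGF receptors together with the co-receptor beta-Klotho (*Klb*).

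Promoter windows, the 250 bases before a transcription start on the gene's strand, were read from the RefSeq table of GRCm38.p6 for 3 of the 4 genes, with 2 starts of *Bdh1* among the 4 windows. *Acat1* has no entry there. The windows of *Slc16a1*, whose level moved most with time, and of *Fgf21*, the hormone gene, are shown because the motif letters searched were found in these. The *Slc16a1* window is chr3:104638414-104638663 (plus strand) and the *Fgf21* window chr7:45615491-45615740 (minus strand), both written 5′ to 3′. Capitals mark the E-box CACGTG, the short cAMP response element TGACG and the ATF4 composite site TGATGNAAT, on either strand.
Slc16a1: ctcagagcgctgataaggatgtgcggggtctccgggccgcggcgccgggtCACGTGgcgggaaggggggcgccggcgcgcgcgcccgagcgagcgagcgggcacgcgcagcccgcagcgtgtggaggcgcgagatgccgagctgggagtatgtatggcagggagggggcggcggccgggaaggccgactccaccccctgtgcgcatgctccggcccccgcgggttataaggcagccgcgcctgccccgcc
Fgf21: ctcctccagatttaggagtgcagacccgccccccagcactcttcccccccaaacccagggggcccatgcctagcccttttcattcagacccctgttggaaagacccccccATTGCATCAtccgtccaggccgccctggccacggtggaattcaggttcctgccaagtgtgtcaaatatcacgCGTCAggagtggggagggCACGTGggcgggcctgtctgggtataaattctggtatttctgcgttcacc

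The *Slc16a1* window held the E-box at bases 195 to 200 before the start. The *Fgf21* window held it at bases 45 to 50, the TGACG letters on the other strand at bases 64 to 68, and the ATF4 composite letters on the other strand at bases 132 to 140. The E-box is the site bound by the clock activators CLOCK and BMAL1 among other factors, and the cAMP response element is the site of CREM and CREB. Of 32851 promoter windows of the same length, 6.02% held CACGTG, 17.8% held TGACG, 0.816% held TGATGNAAT and 1.55% held the full element TGACGTCA, of which TGACG is a part and which neither window held. Also searched on both strands were the D-box TTATGTAA (0.819% of windows), the ROR element TAGGTCA (2.23%) and the PPAR response element as a direct repeat of its core (0.0335%), without a match in the 4 windows. The *Bdh1* windows, chr16:31422047-31422296 and chr16:31428503-31428752 (plus strand), held none of the 7 motifs. The motif set was chosen with the sequences in view, and a match describes letters only.

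Levels are log2 values of relative brightness per probe set, so that they compare livers for 1 gene and not genes with each other. Array medians ranged from 7.07 to 7.24 and arrays correlated pairwise with r from 0.969 to 0.994. At 0 h the medians were 7.18 to 7.24 in WT and 7.19 to 7.23 in KO. At 12 h they were 7.07 to 7.15 in WT and 7.13 to 7.17 in KO, all below every 0 h array. Differences between the times therefore depend on whether arrays are centred on their medians. Among WT livers at 0 h, mouse 80 had an array median of 7.24, with 7.18 to 7.19 in the other 4, and lay at 31.4 on the second principal component, with the others between -6.45 and 3.22. Among WT livers at 12 h, mouse 170 had a core clock mean of 9.38, with 9.14 to 9.20 in the other 4. The targeted gene *Crem* differed between KO and WT by -0.42 over both times (standard error 0.08, limma adjusted p = 0.135, exact permutation p = 6.3e-05). At 0 h the liver labelled KO mouse 1, at 8.17, lay inside the WT range of 8.11 to 8.54. At 12 h all 5 KO livers lay below every WT liver (exact permutation p = 0.0079), as held for 1.24% of all probe sets. The mean level of 6 hepatocyte markers was 13.83 to 13.96 in all livers. Because whole liver was measured, fewer cells of a type and less RNA per cell cannot be told apart.

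Differences were tested with limma over all 25689 probe sets, with a Benjamini-Hochberg adjusted p under 0.05 as the threshold for passing. *Slc16a1* was down-regulated at 12 h in both genotypes, and *Bdh1* was up-regulated at 12 h in KO. *Acat1* and *Fgf21* passed in no comparison, and no member passed for genotype. In WT livers 0 of 4 members were higher and 1 was lower at 12 h, where 13.5% of all probe sets were higher and 14.3% lower. In KO livers 1 of 4 was higher and 1 lower, beside 10.6% and 9.69% of all probe sets.

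*Acat1*, the mitochondrial thiolase that also ends isoleucine breakdown, had standard deviations between 0.05 and 0.12 within its groups. In WT at 0 h its level was 11.69, 11.71, 11.78, 11.80 and 11.88 (mice 147, 145, 80, 78 and 146), a mean of 11.78 ± 0.08 (SD, n = 5). In KO at 0 h it was 11.77, 11.79, 11.80, 11.86 and 11.88 (mice 1, 76, 143, 144 and 77), a mean of 11.82 ± 0.05. The genotypes overlapped at 0 h, with the KO livers inside or at the edge of the WT range. In WT at 12 h the level was 11.82, 11.86, 11.88, 11.88 and 11.96 (mice 168, 170, 167, 169 and 111), a mean of 11.88 ± 0.05. In KO at 12 h it was 11.52, 11.57, 11.76, 11.76 and 11.80 (mice 55, 110, 18, 166 and 109), a mean of 11.68 ± 0.12. At 12 h all 5 KO livers lay below every WT liver, and KO mice 55 and 110 lay below the other 3.

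The log2 fold change of *Acat1* between KO and WT was -0.19 at 12 h (standard error 0.06, 95% confidence interval -0.33 to -0.06). Regrouping all mice at 12 h gave p = 0.0079 (two-sided exact permutation test), which is the lowest p that this number of mice can give. Adjusted over all probe sets it did not pass (limma, adjusted p = 0.219). Groups that did not overlap, with KO lower, were found for 1.24% of all probe sets at 12 h, and 0.0234% of all probe sets passed there. At 0 h the difference was 0.05 (-0.09 to 0.18; adjusted p = 0.987 from limma; exact permutation p = 0.33). In batches 1 to 4 it was -0.04, -0.03, 0.11 and 0.10. The difference of the genotype effect between 12 h and 0 h was -0.24 (standard error 0.09, interval -0.43 to -0.05), with an unadjusted p of 0.0161 and an adjusted p of 0.639 from limma. From 0 h to 12 h the WT mean moved by 0.10 (adjusted p = 0.255 from limma) and the KO mean by -0.14 (adjusted p = 0.142), opposite in sign and neither passing.

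*Bdh1* catalyses the last step, from acetoacetate to beta-hydroxybutyrate. In WT at 0 h its level was 11.06, 11.09, 11.12, 11.14 and 11.20 (mice 145, 146, 147, 78 and 80), a mean of 11.12 ± 0.05 (SD, n = 5). In KO at 0 h it was 10.76, 10.82, 10.85, 11.01 and 11.04 (mice 1, 76, 143, 77 and 144), a mean of 10.90 ± 0.12. All 5 KO livers lay below every WT liver at 0 h, with the nearest KO and WT livers, mice 144 and 145, at 11.04 and 11.06. In WT at 12 h the level was 11.17, 11.22, 11.23, 11.44 and 11.61 (mice 170, 169, 168, 167 and 111), a mean of 11.34 ± 0.18. In KO at 12 h it was 11.16, 11.21, 11.30, 11.40 and 11.50 (mice 166, 110, 55, 18 and 109), a mean of 11.31 ± 0.14. The genotypes overlapped over nearly their whole ranges at 12 h.

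*Bdh1* was up-regulated at 12 h in KO by 0.41 on the log2 scale (standard error 0.09, interval 0.23 to 0.59), which is 1.33-fold (adjusted p = 0.0014 from limma). All 5 KO livers at 12 h lay above all 5 at 0 h (exact permutation p = 0.0079), which held for 8.87% of all probe sets in that direction. In WT the difference was 0.21 (0.03 to 0.39), with 4 of 5 livers at 12 h above every 0 h liver (exact permutation p = 0.016), and it did not pass over all probe sets (limma, adjusted p = 0.0701). It passed with an adjusted p of 0.0116 and a value of 0.30 where each array was centred on its median. The difference between the 2 genotypes in this change was 0.20 (-0.05 to 0.46; adjusted p = 0.792 from limma), so that passing in KO alone does not show a difference from WT. The mean of the 12 h batch was 11.32, and the means of the 4 batches at 0 h lay between 10.95 and 11.10. What the 12 h batch itself adds cannot be told apart from time.

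Between genotypes at 0 h, *Bdh1* gave a log2 fold change of -0.23 (standard error 0.09, interval -0.41 to -0.05). The exact permutation test over the 5 and 5 mice gave p = 0.0079, and limma an adjusted p of 0.987. Without overlap and with KO lower were 0.385% of all probe sets at 0 h, and 0% of all probe sets passed. Within batches 1 to 4 the difference was -0.16, -0.37, -0.09 and -0.31, in batches of 2 to 3 livers. Because every KO liver at 0 h lay below every WT liver, the sign within each batch was given and adds no support. Without the liver labelled KO mouse 1 the difference at 0 h was -0.19. At 12 h the difference was -0.03 (-0.21 to 0.15; adjusted p = 0.933 from limma; exact permutation p = 0.79). Over both times it was -0.13 (-0.25 to 0.00; adjusted p = 0.509 from limma; exact permutation p = 0.06).

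**Figure D1:**
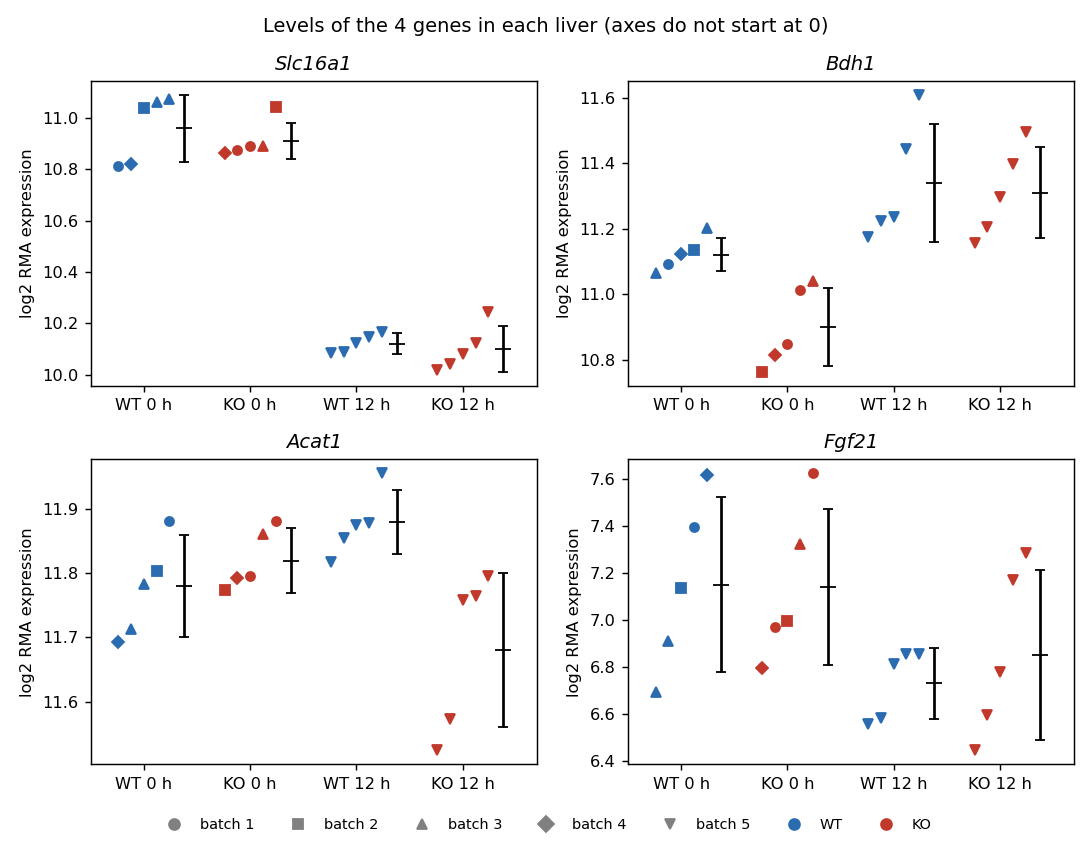
Log2 expression of the 4 genes in each of 20 livers (vertical axes, which do not start at 0, differ between genes), by genotype and time, with 1 symbol a mouse, WT in blue, KO in red and the batch as its shape, and bars for the mean ± SD of 5 mice. *Slc16a1* falls from 10.81 to 11.07 in WT at 0 h to 10.09 to 10.17 at 12 h, and *Fgf21* has its narrowest group in WT at 12 h, at 6.56 to 6.86.

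*Slc16a1* encodes MCT1, which carries lactate, pyruvate and ketone bodies across the plasma membrane. In WT at 0 h its level was 10.81, 10.82, 11.04, 11.06 and 11.07 (mice 146, 147, 78, 145 and 80), a mean of 10.96 ± 0.13 (SD, n = 5). In KO at 0 h it was 10.86, 10.88, 10.89, 10.89 and 11.04 (mice 76, 77, 143, 144 and 1), a mean of 10.91 ± 0.07. The KO livers at 0 h all lay within the WT range. In WT at 12 h the level was 10.09, 10.09, 10.12, 10.15 and 10.17 (mice 111, 167, 169, 170 and 168), a mean of 10.12 ± 0.04. In KO at 12 h it was 10.02, 10.04, 10.08, 10.12 and 10.25 (mice 55, 18, 110, 109 and 166), a mean of 10.10 ± 0.09. In both genotypes every liver at 12 h lay far below every liver at 0 h, and the genotypes overlapped at each time.

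*Slc16a1* was down-regulated at 12 h by a log2 fold change of -0.84 in WT (standard error 0.07, interval -0.98 to -0.70), a level 1.79-fold higher at 0 h (limma adjusted p = 1.99e-08). In KO the fold change was -0.81 (-0.95 to -0.67), or 1.75-fold (limma adjusted p = 3.32e-08). Each gave an exact permutation p of 0.0079. Livers that did not overlap between times, with 12 h lower, were found for 8.33% of all probe sets in WT and 7.49% in KO. The 12 h batch had a mean of 10.11, and the means of the batches at 0 h lay between 10.84 and 11.04. The spread of the 0 h batches does not bound what the 12 h batch adds, so batch and time cannot be told apart. Without WT mice 80 and 170 the WT value was -0.82 and the KO value stayed at -0.81.

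KO and WT were close for *Slc16a1*. The log2 fold change was -0.05 at 0 h (-0.19 to 0.09; exact permutation p = 0.51) and -0.02 at 12 h (-0.16 to 0.12; exact permutation p = 0.67). Over both times it was -0.03, with an interval of -0.14 to 0.07 and an adjusted p of 0.838 from limma. Its change with time differed between the genotypes by 0.03 (-0.17 to 0.23; adjusted p = 0.967 from limma). Within batches 1 to 5 the difference between genotypes was 0.07, 0.00, -0.18, 0.04 and -0.02.

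**Figure D2:**
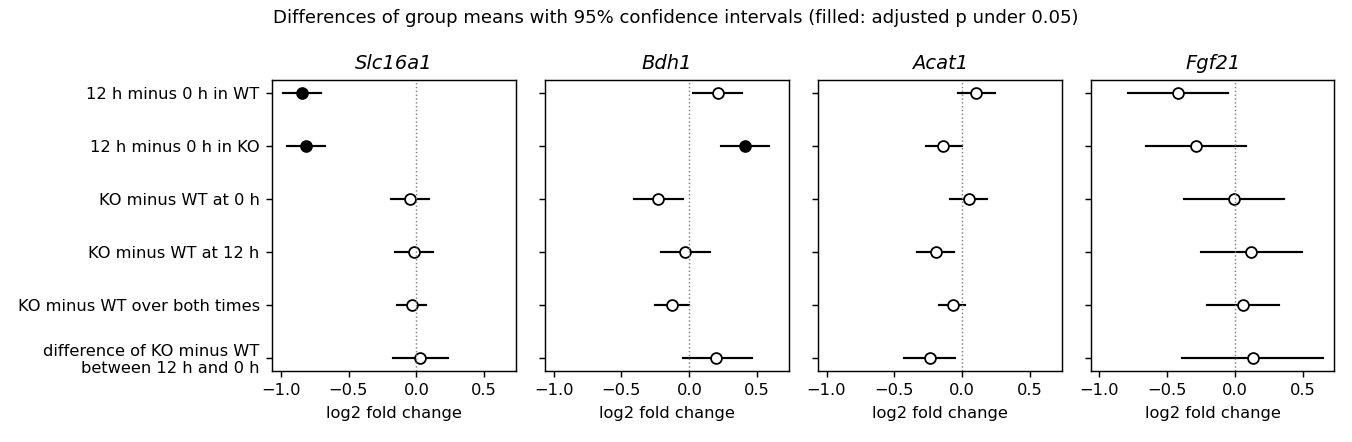
Differences of group means (horizontal axis, log2 fold change) with 95% confidence intervals for the 4 genes, 1 row a comparison, with filled points for an adjusted p under 0.05 from limma. The filled points are *Slc16a1* at 12 h against 0 h in WT (-0.84) and KO (-0.81) and *Bdh1* in KO (0.41).

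*Fgf21* varied more among mice of the same group than the other members did in 3 of the 4 groups, the exception being WT at 12 h. In WT at 0 h its level was 6.69, 6.91, 7.14, 7.40 and 7.61 (mice 145, 80, 78, 146 and 147), a mean of 7.15 ± 0.37 (SD, n = 5). In KO at 0 h it was 6.79, 6.97, 7.00, 7.32 and 7.62 (mice 76, 77, 1, 144 and 143), a mean of 7.14 ± 0.33. The highest liver was 1.89-fold above the lowest in WT and 1.78-fold in KO, and the genotypes covered nearly the same range. In WT at 12 h the level was 6.56, 6.58, 6.81, 6.85 and 6.86 (mice 168, 169, 167, 111 and 170), a mean of 6.73 ± 0.15. In KO at 12 h it was 6.45, 6.60, 6.78, 7.17 and 7.28 (mice 109, 166, 18, 55 and 110), a mean of 6.85 ± 0.36. The KO livers at 12 h spread on both sides of the WT range.

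The mean of *Fgf21* over all livers lay below the median of all probe sets. From 0 h to 12 h it moved by -0.42 in WT (standard error 0.18, interval -0.79 to -0.05; adjusted p = 0.0842 from limma; exact permutation p = 0.056) and by -0.29 in KO (-0.66 to 0.08; adjusted p = 0.281 from limma; exact permutation p = 0.21). Neither passed, and 2 of 5 WT and 3 of 5 KO livers at 12 h lay below every 0 h liver of their genotype. The means of the batches at 0 h ranged from 6.98 to 7.33, and that of the 12 h batch was 6.79, where batch and time cannot be told apart. KO minus WT was -0.01 at 0 h (-0.38 to 0.36), 0.12 at 12 h (-0.25 to 0.49) and 0.06 over both times (-0.21 to 0.32), with exact permutation p of 0.98, 0.52 and 0.68. Within batches 1 to 4 it was -0.10, -0.14, 0.52 and -0.82, above 0 in batch 3 and below 0 in the other 3.

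For genotype, an unadjusted p under 0.05 was reached by 1 of 4 members at 0 h (*Bdh1*), beside 4.47% of all probe sets. At 12 h it was reached by 1 of 4 (*Acat1*), beside 12.5%. Over both times it was reached by 0 of 4, beside 9.88% of all probe sets, while 0.0117% passed after adjustment. For the difference of the genotype effect between 12 h and 0 h it was reached by 1 of 4 (*Acat1*), beside 6.84%. After adjustment 0% passed there. In every run that left out 1 array, and in every other setting tried, all 4 members stayed short of the threshold for genotype.

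**Figure D3:**
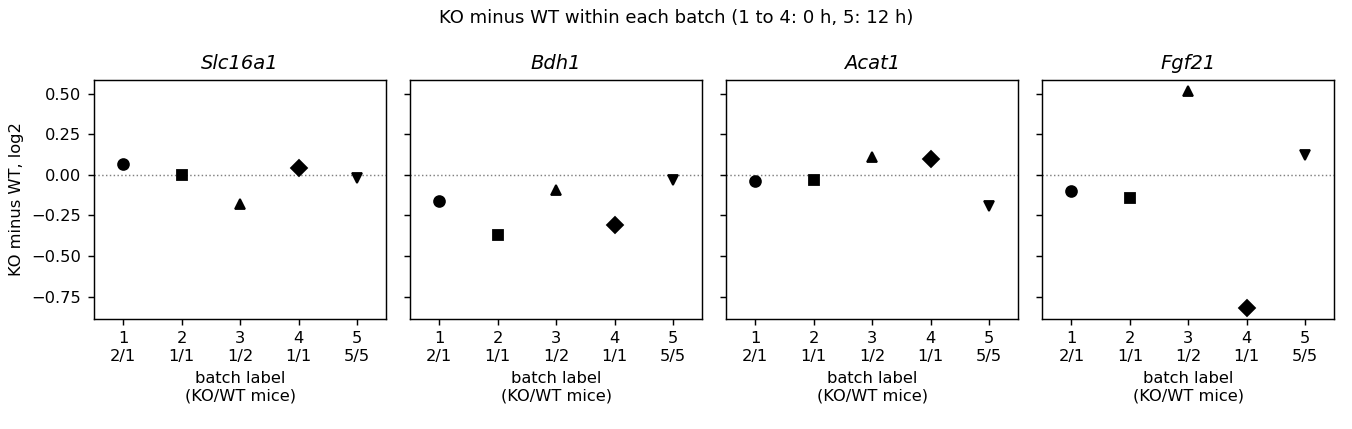
KO minus WT (vertical axis, log2) within each batch label (horizontal axis, with the numbers of KO and WT mice), batches 1 to 4 at 0 h and batch 5 at 12 h, 1 point a batch and no error bar since most batches hold 2 or 3 livers. In the 4 batches at 0 h *Bdh1* runs from -0.37 to -0.09 and *Fgf21* from -0.82 to 0.52. The sign of *Bdh1* there follows from its KO and WT livers not overlapping at 0 h.

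In levels within each gene the order of the groups was as follows. For *Slc16a1* both groups at 0 h stood above both at 12 h, and WT and KO at the same time did not differ beyond their spread. For *Bdh1* the order was KO at 0 h, WT at 0 h, KO at 12 h and WT at 12 h, and of these neighbours KO and WT at 0 h did not overlap, while WT at 0 h and KO at 12 h overlapped by 1 liver of each. For *Acat1* KO at 12 h was lowest and WT at 12 h highest, with both 0 h groups between them and overlapping each other. For *Fgf21* all groups overlapped.

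Deviations of each liver from its group mean were compared between the members and with the PPAR alpha targets *Cpt1a*, *Pdk4* and *Cyp4a14* in 18 pairs over 20 livers. No pair passed after adjustment over the 18 (lowest adjusted permutation p = 0.21 for Pearson's r and 0.23 for Spearman's rho). *Bdh1* and *Acat1* gave r = 0.49 (permutation p = 0.036) and rho = 0.48 (permutation p = 0.039), and r was 0.32 without mice 109 and 111, so that the relation rested in part on these. *Slc16a1* and *Fgf21* gave r = -0.61 (permutation p = 0.025) and rho = -0.53 (permutation p = 0.05), and r was -0.59 without mice 1 and 166. *Bdh1* and *Cpt1a*, the gate of fatty acid entry into mitochondria, gave r = 0.57 (permutation p = 0.016) and rho = 0.52 (permutation p = 0.03), with r = 0.39 without mice 109 and 111. *Acat1* and *Cyp4a14* had the lowest permutation p for rho (rho = 0.53, permutation p = 0.021), while r was 0.27 (permutation p = 0.18). Within genotype and batch, over the 14 livers that share both with another liver, r was 0.53, -0.47, 0.66 and 0.19 for these 4 pairs. Other pairs moved further in that setting, *Acat1* and *Fgf21* from -0.34 to -0.67, *Slc16a1* and *Cpt1a* from 0.06 to -0.54, and *Slc16a1* and *Pdk4* from -0.48 to 0.06. All 12 h livers are among the 14, with unchanged deviations. Of the 0 h livers only 2 KO livers of batch 1 and 2 WT livers of batch 3 remain. The shifts thus come from leaving out most 0 h livers and centring the rest anew.

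The 3 genes most like each member in these deviations, among 11250 probe sets of 1 gene above the median brightness (11251 for *Fgf21*), are given as a description over 20 livers. For *Bdh1* they were *Crot*, a peroxisomal carnitine acyltransferase (r = 0.86), *Gadd45a* (r = 0.85) and *Ntn1* (r = 0.83). For *Acat1* they were *Timm21* (r = 0.80), *Slc10a5* (r = 0.79) and *Riox2* (r = 0.78). For *Slc16a1* they were *Ndufa8*, a subunit of respiratory complex I (r = 0.80), *Zfp768* (r = 0.77) and *Gm5779* (r = 0.76). For *Fgf21* they were *Irf2* (r = 0.78), *Tgif1* (r = 0.77) and *Plk2* (r = 0.77).

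At 12 h 13.5% of all probe sets were higher and 14.3% lower in WT, and 10.6% and 9.69% in KO. Of 11 ketone body enzymes listed, 7 were analysed here, and the counts and medians cover these. In WT 1 of 7 was higher at 12 h and 0 lower, with a median log2 fold change of 0.10 beside -0.027 over all probe sets. It was *Aacs*, the cytosolic acetoacetyl-CoA synthetase, at 0.56 (limma adjusted p = 0.0355), which stood at 0.42 in KO without passing (limma adjusted p = 0.138). In KO 1 was higher, *Bdh1*, and 1 lower, with a median of 0.03 beside -0.024. The lower one was *Bdh2*, the cytosolic dehydrogenase, at -0.54 (limma adjusted p = 0.00813), which stood at -0.19 in WT (limma adjusted p = 0.331). The difference between the genotypes in this change did not pass for *Bdh2* (-0.35, limma adjusted p = 0.771) or *Aacs* (-0.14, limma adjusted p = 0.948).

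Of 18 genes for monocarboxylate transport 17 were measured. In WT 4 were higher and 3 lower at 12 h (median -0.09), and in KO 5 were higher and 3 lower (median -0.08). Of all probe sets 13.5% were higher and 14.3% lower in WT, and 10.6% and 9.69% in KO. *Slc16a1* had the lowest log2 fold change of the list in both genotypes. After it came *Slc16a6*, a transporter of the same family, at -0.50 in WT and -0.40 in KO (limma adjusted p = 0.00109 and 0.00813), and *Slc16a14* at -0.36 and -0.25 (limma adjusted p = 0.00365 and 0.0458). The highest were *Slc16a5* at 1.67 in WT and 0.80 in KO, *Slc16a12*, a creatine transporter, at 1.32 and 1.43, and *Slc16a7* (MCT2), at 0.81 and 0.53, all passing in both. Basigin (*Bsg*), the chaperone that brings MCT1 to the membrane, stood at -0.13 and -0.12 and passed in neither.

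Beside the counts that follow, 13.5% of all probe sets were higher and 14.3% lower in WT, and 10.6% and 9.69% in KO. All 9 genes listed for FGF21, its relatives and their receptors were measured. In WT 1 was higher, the receptor *Fgfr3* at 0.39 (limma adjusted p = 0.00747), and 1 lower, *Fgf15*, an endocrine relative that the gut secretes after meals, at -0.41 (limma adjusted p = 0.00269). The median was 0.05. In KO 2 were higher, *Fgfr3* at 0.59 (limma adjusted p = 0.000213) and *Fgfr1* at 0.46 (limma adjusted p = 0.00374), 0 were lower and the median was 0.12. The co-receptor *Klb* stood at 0.28 in WT and 0.33 in KO, and *Fgfr4*, the main FGF receptor of hepatocytes, at 0.05 and 0.12, none passing.

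**Figure D4:**
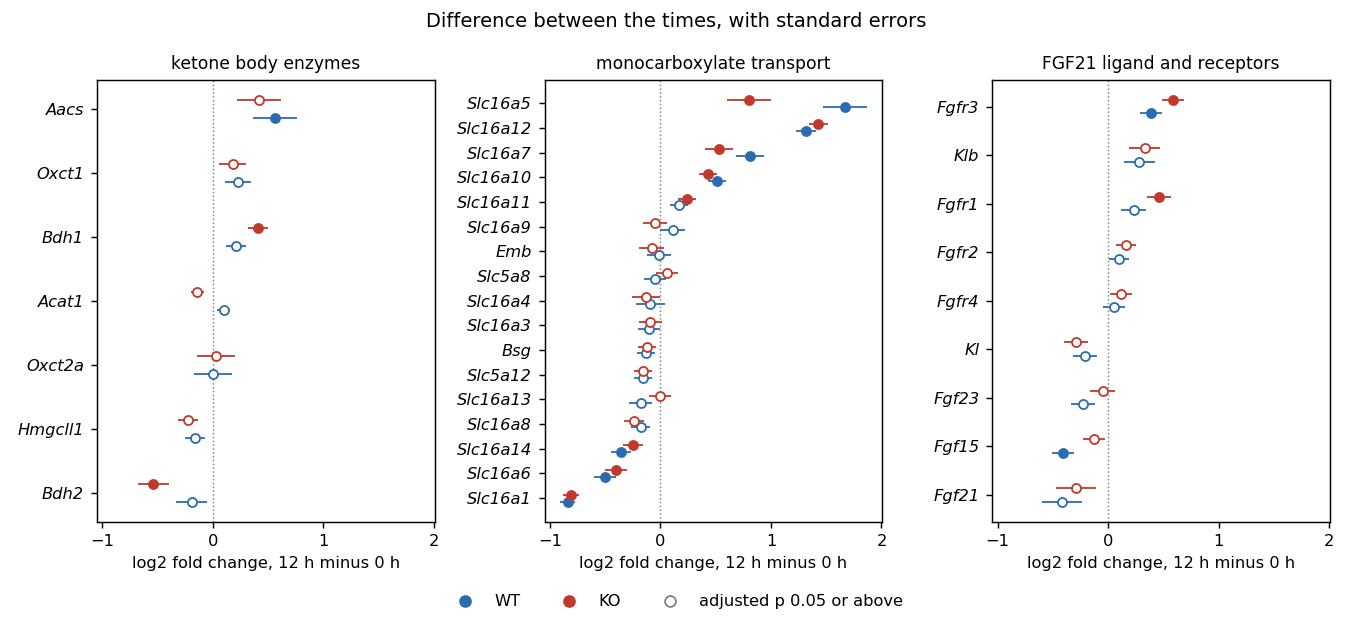
Log2 fold change of 12 h against 0 h (horizontal axis, bars of 1 standard error) for the measured genes of 3 lists, blue for WT and red for KO, with open points for an adjusted p of 0.05 or above from limma. *Slc16a1* lies lowest among the transporters, at -0.84 in WT and -0.81 in KO, and *Slc16a5* (WT 1.67) and *Slc16a12* (KO 1.43) lie highest.

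Among 16 regulators of ketogenesis and *Fgf21*, 7 were higher and 2 lower at 12 h in WT (median 0.20), and 6 higher and 2 lower in KO (median 0.03). Beside them, 13.5% of all probe sets were higher and 14.3% lower in WT, and 10.6% and 9.69% in KO. The nuclear receptor genes *Nr1d2* (2.59 in WT, 2.87 in KO) and *Nr1d1* (1.38 and 1.57), which encode the REV-ERB repressors of the clock, had the highest values. *Ppara*, the fasting receptor for fatty acids, rose by 0.83 in WT and 0.90 in KO (limma adjusted p = 4.75e-06 and 1.77e-06). *Ppargc1a*, its coactivator, rose in WT by 0.85, and its other probe set gave 1.22, while 0.28 in KO did not pass. *Nfil3*, a clock repressor, fell with values of -1.47 and -1.65, and *Atf4*, the factor of the integrated stress response, with -0.41 and -0.37 (limma adjusted p = 0.00124 and 0.00321).

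Upstream of ketone bodies, 18 of 20 genes for fatty acid entry and beta oxidation were measured. In WT 3 were higher and 2 lower (median 0.02), and in KO 3 were higher and 3 lower (median -0.05). The shares of all probe sets were 13.5% higher and 14.3% lower in WT, and 10.6% and 9.69% in KO. *Cpt1a* rose by 0.83 in WT and 1.07 in KO (limma adjusted p = 1.09e-06 and 3.65e-08), *Acadl*, a long-chain acyl-CoA dehydrogenase, by 0.38 and 0.30, and *Hadha*, a subunit of the trifunctional protein, by 0.19 and 0.27. *Acsl5*, an acyl-CoA synthetase, gave -0.26 and -0.38, and *Etfb*, which passes electrons on from the dehydrogenases, -0.17 and -0.22, all passing, with *Echs1* at -0.18 in KO.

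Of 12 PPAR alpha targets 11 were measured. In WT 4 of the 11 were higher and 2 lower (median 0.28), beside 13.5% and 14.3% of all probe sets. In KO 3 of the 11 were higher and 3 lower (median -0.07), beside 10.6% and 9.69% of all probe sets. The highest in WT were the omega-hydroxylase genes *Cyp4a14* at 2.37, with WT mouse 170 at a level of 11.87 and the other 4 at 8.01 to 9.04, and *Cyp4a10* at 1.87, and in KO *Angptl4*, an inhibitor of lipoprotein lipase, at 1.13. The lowest in both were *Pdk4*, the kinase that shuts pyruvate dehydrogenase, at -1.10 and -1.75, and the lipid droplet coat gene *Plin2* at -0.74 and -0.70. *Fgf21*, another target of this receptor that is not in the list, stood at -0.42 in WT and -0.29 in KO without passing. Its sign was that of the targets that were lower, 2 in WT and 3 in KO. It was opposite to that of the 4 and 3 that were higher.

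Of 15 genes for isoleucine and leucine breakdown, a route that *Acat1* shares, 14 were measured. In WT 3 were higher and 0 lower (median 0.11), *Auh* at 0.57, *Mccc2* at 0.36 and *Ivd* at 0.25. In KO 1 was higher, *Auh* at 0.49, and 3 were lower (median -0.10), *Bcat2* at -0.35, *Dld* at -0.31 and *Echs1* at -0.18. Of 17 core clock genes 16 were measured, and 12 were higher and 2 lower in WT (median 1.25) and 12 higher and 4 lower in KO (median 1.28). For both lists the shares of all probe sets were 13.5% higher and 14.3% lower in WT, and 10.6% and 9.69% in KO.

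For genotype no gene of these 8 lists passed at 0 h, at 12 h or over both times. None passed for the difference between genotypes in the change with time either. A gene of these lists that passed between times in 1 genotype alone therefore does not show a difference between genotypes. The medians over both times were -0.05 for ketone body enzymes, -0.01 for monocarboxylate transport, 0.06 for FGF21 and its receptors, -0.03 for the regulators, -0.09 for fatty acid oxidation, -0.23 for PPAR alpha targets and -0.11 for isoleucine and leucine breakdown, beside 0.002 over all probe sets. At 12 h alone the medians of PPAR alpha targets and of isoleucine and leucine breakdown were -0.39 and -0.20, beside 0.001 over all probe sets. *Cyp4a14* stood at -2.49 at 12 h, just short of the threshold (limma adjusted p = 0.0529). The largest sizes among ketone body enzymes were *Aacs* at 0.29 (limma adjusted p = 0.498) and *Oxct2a* at 0.18 (limma adjusted p = 0.633). Among the FGF21 genes they were *Klb* at -0.20 (limma adjusted p = 0.514) and *Fgf15* at 0.16 (limma adjusted p = 0.45).

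Some markers of other cell types passed between the times. Among all probe sets the WT shares were 13.5% for higher and 14.3% for lower. The KO shares were 10.6% for higher and 9.69% for lower. Counts of 1 in lists of 2 to 6 markers are too small to set against these shares. Whether any list differed from them was not tested. Of 6 Kupffer cell markers 4 were lower at 12 h in WT (*Clec4f* at -0.74, *Vsig4* at -0.62, *Cd5l* at -0.49 and *Adgre1* at -0.44) and 2 in KO. The mean of that list was 9.31 to 9.68 in WT and 9.16 to 9.65 in KO at 0 h, and 8.80 to 9.24 and 8.94 to 9.33 at 12 h. The exocrine pancreas list, with 4 of 6 markers measured, had *Cela1* lower in both genotypes at -0.46, and means of 7.02 to 7.32 at 0 h and 6.79 to 6.92 at 12 h in WT, and of 7.11 to 7.32 and 6.83 to 7.12 in KO, where the times overlap. Hepatocyte markers gave 2 of 6 higher in WT (*Cps1* at 0.20 and *Tat* at 0.24) and 0 in KO. In WT and KO, in that order, 1 and 0 of 6 sinusoidal endothelial markers were higher, and 1 and 1 of 4 cholangiocyte and 1 and 0 of 2 erythroid markers were lower. Of 6 stellate cell markers 2 were higher and 1 lower in WT, and 1 was lower in KO. Of the neutrophil and adipocyte markers 0 passed. The part of these markers in the levels of *Slc16a1* and *Bdh1* was not tested. For genotype no marker of the 9 cell types listed passed.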

How the data were processed

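Total RNA of 20 mouse livers had been hybridized to Affymetrix arrays. The values the authors deposited are log2 expression per probe set. RMA is named in the submitters' processing notes, without a version, so the table comes background-corrected and normalized, which leaves no measure of signal over background. The number of arrays, 5 a group, limits the precision. Details of the normalization of the livers are not given in the sources used here.

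The table lists 35557 probe sets. Of these, 9868 hold no value and were dropped, and the other 25689 were used unfiltered. Symbols are those of the platform annotation and were checked by identifier in RefSeq (GRCm38.p6), where 0 had changed. A single gene was named for 20777 probe sets, several for 232 and none for 4680. For genes of a list with several probe sets the one with the highest mean was used. Groups were taken from the genotype and time in the labels, which number the mice, and no 2 arrays held identical values. Separate mice are taken as replicates. The model, 4 group means over 20 arrays, was run with lmFit and eBayes of limma 3.58.1 (R 4.3.3). Exact permutation tests regrouped 5 against 5 mice, or both times together within each time. Correlations used 100000 permutations within groups (Python 3.11.15, scipy 1.17.1, numpy 2.4.6, pandas 2.3.3). The fit was tested on simulated data.

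Named were the 4 genes, *Crem*, and per gene list up to 3 passing genes with the highest and up to 3 with the lowest fold change. For genotype, where none passed, the 2 largest of the ketone body and FGF21 lists were named, and for each member the 3 most alike. Outside this rule, *Bsg*, *Klb*, *Fgfr4* and values of *Aacs*, *Bdh2* and *Ppargc1a* in the genotype where they did not pass, and *Cyp4a14* for genotype, were given for their role after values were seen, and cell type markers where they passed. No core clock gene is named from its own list. The members, lists and tests were chosen with earlier results of these data known. Alternatives tried were batch as a block, only the arrays compared, only bright probe sets (12844), quantile normalization, median centring, array weights, a robust prior with an intensity trend, leaving out each array, and leaving out WT mice 80 and 170 together.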

Additional observations from a re-analysis of the deposited data

Results flagged for a closer look

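At 0 h the *Slc16a1* level of the liver labelled KO mouse 1 was 11.04, apart from the other 4 KO livers at 10.86 to 10.89. It is the only KO liver of batch 2, and the WT liver of that batch, mouse 78, was also at 11.04. Its gap to the other KO livers took up 0.84 of the range of the group. It was 1 of 16 groups of 5 mice tested in this way, where chance sets about 1 in 20 groups apart. Without it the *Slc16a1* difference between KO and WT at 0 h was -0.08, and between 12 h and 0 h in KO -0.78.

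For *Acat1* all 5 WT livers at 12 h lay above the WT mean at 0 h, and all 5 KO livers at 12 h lay below the KO mean at 0 h. The difference between these changes was -0.24, and as a test over all probe sets it did not pass (limma, unadjusted p = 0.0161, adjusted p = 0.639). Liver against liver, the times overlapped in both genotypes. In WT 1 of 5 livers at 12 h lay above every 0 h liver, and in KO 4 of 5 lay below every 0 h liver.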

How the results depend on the processing

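*Slc16a1* passed between times in WT and KO, and *Bdh1* in KO, under all 8 other settings (from -0.88 to -0.75, from -0.82 to -0.75 and from 0.41 to 0.47) and in all 20 runs that left out 1 array (from -0.88 to -0.81, from -0.85 to -0.78 and from 0.37 to 0.45). *Bdh1* in WT at 12 h against 0 h came to pass with only bright probe sets (0.21, limma adjusted p = 0.0422), with median centring (0.30, adjusted p = 0.0116) and with an intensity trend and robust prior (0.21, adjusted p = 0.0444), and *Acat1* in WT with median centring (0.19, adjusted p = 0.0345). With quantile normalization KO minus WT at 12 h changed sign for *Bdh1* (0.03) and *Slc16a1* (0.03), values near 0. The cause was not tested. Leaving out 1 array at a time, *Bdh1* in WT ranged from 0.15 to 0.25 and passed without WT mouse 170 (adjusted p = 0.0458 from limma), and *Fgf21* in WT ranged from -0.53 to -0.30 and passed without WT mouse 145 (adjusted p = 0.0316). Ranges that crossed or touched 0 were -0.13 to 0.11 for *Fgf21* between genotypes at 0 h and 0.00 to 0.11 over both times. Between genotypes at 12 h they were -0.07 to 0.04 for *Bdh1* and -0.06 to 0.00 for *Slc16a1*. The difference of the genotype effect between 12 h and 0 h ranged from -0.01 to 0.07 for *Slc16a1*. In all, 12 values without 1 array changed sign, and 2 came to pass. With batch as a fixed block all 16 genotype values kept their direction and side of the threshold, as did all 24 without WT mice 80 and 170. *Fgf21* has no value with only bright probe sets. No paired analysis was possible because mouse numbers differ between all groups.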
